A study of Homo sapiens with 15 samples.

Results

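The comparison set 3 libraries labelled as cells with a doxycycline-induced NOTCH4 intracellular domain (NICD4) directly against 3 libraries labelled as cells with a doxycycline-induced NOTCH1 intracellular domain (NICD1). These are 6 of the 15 poly(A) RNA-seq libraries of the series, chosen by the receptor number in their column names. The remaining 9 are 3 each of NICD2, NICD3 and an isogenic empty vector (EV), and EV levels are quoted only for orientation. Neither the dose and duration of doxycycline, nor whether EV cells received it, nor the number of clones or separate cultures is given in the labels, so the spread behind the p-values may be that of technical repeats. The labels call the cells HCT116, a colorectal carcinoma line, while descriptions and column names say U373, a glioma line. One library, NICD4 replicate 1, is NICD4 by title and description and NICD3 by 2 other label fields. It was kept as NICD4, and the main list counts are also given without it.

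A NOTCH receptor is cut at the membrane after it binds a ligand on a neighbouring cell. The freed intracellular domain moves to the nucleus, binds the DNA-bound factor RBPJ together with a Mastermind coactivator, and turns a repressed gene into an active one. The HES and HEY repressors and NRARP, which limits the complex, are the best known targets. In the intestine NOTCH signalling keeps progenitors from the secretory fate. The direct contrast asks how the transcriptomes under the domains of 2 receptors differ, with the same partner on DNA.

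Counted reads ran from 11630195 to 16422913 in NICD4 and from 15648211 to 18875409 in NICD1. Levels are counted reads scaled to a common total (CPM, counts per 1e6) with library sizes scaled by trimmed means of M values (TMM), and differences are log2, NICD4 minus NICD1, ± standard error. Of 15122 genes tested by limma over all 15 libraries, 4110 (27.2%) had a Benjamini-Hochberg adjusted p under 0.05, here "called". Of these, 2008 (13.3%) were higher and 2102 (13.9%) lower in NICD4. With the 6 libraries alone 946 genes (6.26%) were called, 578 higher (3.82%) and 368 lower (2.43%). The median within-group standard deviation (SD) was 0.192 in NICD4 and 0.139 in NICD1, on the log2 scale, against 0.107 to 0.116 in the other groups. Without NICD4 replicate 1, 1163 (7.69%) were higher and 1119 (7.4%) lower, without NICD1 replicate 1 1131 and 1034, and without NICD1 replicate 3 1097 and 911. At least a 2-fold difference was reached by 473 of the called genes higher and 274 lower in NICD4, of which 266 and 121 were also called with the 6 libraries alone. A gene named below with the word rose or fell was called, with the same direction, in all of the alternative settings in which it was tested, unless an exception is given beside it. A bulk level cannot tell fewer cells expressing a gene from less RNA per cell.

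Of the marker lists, 15 of 20 colorectal epithelial genes and 7 of 18 astrocyte and glioma genes passed the filter on low counts. CDH17, CDX1, LGALS4, TFF3 and GPA33 of the first list did not pass. The surface antigen EPCAM stood at 151 ± 27.2 CPM in NICD4 and 222 ± 21.8 CPM in NICD1 (SD, n = 3 each), and the intestinal factor CDX2 at 60.7 ± 7.5 CPM in NICD4 and 49.4 ± 6.09 CPM in NICD1. The astrocyte filament gene GFAP was at 4.38 ± 2.17 CPM in NICD4 and 2.09 ± 0.21 CPM in NICD1, and the mesenchymal filament gene VIM at 1.06 ± 0.614 CPM in NICD4 and 0.625 ± 0.253 CPM in NICD1. Other members of the astrocyte and glioma list were at higher levels. The most abundant, CD44, fell to 51.6 CPM in NICD4, against 117 CPM in NICD1 (−1.19), and was the only member called lower. NES stood at 36.2 CPM in NICD4 and 25.8 CPM in NICD1, SLC1A3 at 16.1 CPM in NICD4 and 14.1 CPM in NICD1, and ALDH1L1 rose to 6.0 CPM in NICD4, against 0.652 CPM in NICD1 (3.14 ± 0.25). While 13.3% of all genes were called higher and 13.9% lower, of the tested colorectal genes it was 1 (6.67%) and 6 (40%). Of the tested astrocyte and glioma genes 3 (42.9%) were called higher and 1 (14.3%) lower. With NICD4 replicate 1 left out these counts were 2 and 5, and 1 and 1, and with the 6 libraries alone 1 and 3, and 1 and 1. The higher call of NES was lost under 9 settings. None of the 4 receptor genes was called. NOTCH1 averaged 31.2 CPM in NICD4, 28.3 CPM in NICD1 (adjusted p = 0.21) and 30.3 CPM in EV, and NOTCH4 1.99 CPM in NICD4, 2.19 CPM in NICD1 (adjusted p = 0.745) and 1.66 CPM in EV, both p-values by limma. NOTCH2 (0.14 ± 0.07) and NOTCH3 (0.15 ± 0.11) were not called either, but with the GC trend removed NOTCH2 was called higher (0.19) and the differences of NOTCH1 (−0.14) and NOTCH3 (−0.12) were below 0. Neither receptor gene was thus called higher in the group named after it, and the labels were not checked by them. Whether reads of an introduced domain would be counted under the gene is not given in the sources used here, so the groups are called NICD4 and NICD1 by label. NICD4 replicate 1 had 24.7 CPM of the ligand gene JAG1, against a NICD3 mean of 6.43 CPM, and 108 CPM of TMEM132D-AS1, against a NICD3 mean of 9.6 CPM. For both genes, chosen after their values were seen, it lay with the other 2 NICD4 libraries.

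Printed first are 3 promoter stretches, because 2 of them hold the letters read by RBPJ and the third those read by sterol-regulated factors, and these genes are described in both pathway results. Each covers the 150 bases before the gene's start, 5′ to 3′ on the gene's strand, from RefSeq (GRCh38.p14). HES4 lies at chr1:1000098-1000247 (minus strand), HES1 at chr3:194135998-194136147 (plus) and SREBF2 at chr22:41832955-41833104 (plus). Capitals mark TGGGAA, the core of the RBPJ motif, in HES4 and HES1, and TCACNCCAC, a sterol response element, in SREBF2.
HES4: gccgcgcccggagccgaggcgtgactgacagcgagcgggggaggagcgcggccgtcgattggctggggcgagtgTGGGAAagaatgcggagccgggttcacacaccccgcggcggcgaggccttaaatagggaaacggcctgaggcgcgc
HES1: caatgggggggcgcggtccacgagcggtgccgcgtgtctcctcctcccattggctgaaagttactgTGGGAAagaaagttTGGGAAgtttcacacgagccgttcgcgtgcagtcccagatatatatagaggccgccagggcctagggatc
SREBF2: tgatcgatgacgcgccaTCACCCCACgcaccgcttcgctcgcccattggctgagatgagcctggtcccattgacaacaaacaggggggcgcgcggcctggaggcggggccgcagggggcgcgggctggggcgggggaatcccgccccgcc
Counted from the gene's start, TGGGAA begins at position −76 in HES4 and at −84 and −70 in HES1. On either strand it is found in 24% of 35116 promoter windows of 300 bases, and in 6 of the 10 HES, HEY and NRARP genes with a window. Those 6 are HES1, HES4, HEYL, which was not called, and HES3, HES5 and HEY2, which were not tested. The sterol element begins at position −133 in SREBF2. It is found in 1.13% of all windows, and in 1 of 21 cholesterol genes with a window. The 2 motifs do not overlap each other, and a match is only a description of the letters.

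The best known NOTCH targets were more often called higher than lower in NICD4. Of 7 tested HES, HEY and NRARP genes, 5 were called higher and 0 lower, with a median difference of 0.53 against −0.02 over all genes. The higher share of 71.4% stands beside 13.3% of all genes, but this list was chosen with earlier results of these data known. Without NICD4 replicate 1 the count was again 5 higher and 0 lower, and with the 6 libraries alone it was 4 and 0.
HES4 had 300.4, 224 and 279 CPM in NICD4, against 104, 127 and 90.6 CPM in NICD1 and an EV mean of 23.7 CPM. All 3 NICD4 libraries lay above all 3 NICD1 libraries, a difference of 1.33 ± 0.17 (limma adjusted p = 7.9e-05). HES1, the canonical repressor, had 51.5, 61.5 and 58.2 CPM in NICD4, against 38.7, 37.5 and 42.8 CPM in NICD1. It too rose without overlap, by 0.52 ± 0.08 (limma adjusted p = 0.00044), and both groups stood above the EV mean of 19.4 CPM. HES2 rose by 0.67 ± 0.13, at 18.4 ± 2.68 CPM in NICD4 and 11.5 ± 1.44 CPM in NICD1 (SD, n = 3). NRARP had 58.9 ± 0.937 CPM in NICD4 and 40.8 ± 2.9 CPM in NICD1 (0.53 ± 0.07), but once each library's trend on transcript GC content was removed the difference was 0.19 and no longer called. HEY1 was near the detection floor, at 0.902 CPM in NICD4 and 0.283 CPM in NICD1, and its call (1.55 ± 0.44) was lost with the 6 libraries alone and without NICD1 replicate 1 or 3. HEYL (0.18 ± 0.11) and HES6 (0.15 ± 0.11) were not called. With the GC trend removed HES6 was called lower (−0.21) and the list counted 4 higher and 1 lower.

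**Figure D1:**
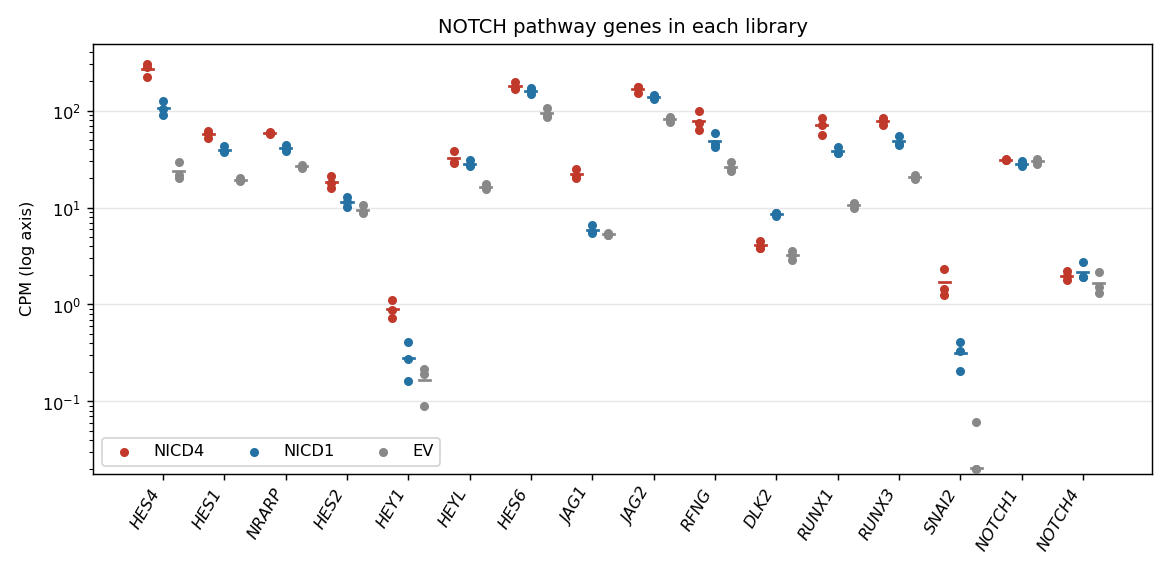
CPM on a log axis of 16 NOTCH pathway genes in each NICD4, NICD1 and EV library; points are libraries, bars are means of 3, and libraries with no read are drawn at the lower edge. JAG1 stands apart in NICD4 (22.1 CPM, against 5.88 CPM in NICD1), HES4 is stepped across the 3 groups, and NOTCH1 and NOTCH4 differ little.

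Among 8 tested NOTCH ligands and fringe enzymes, 4 (50%) were called higher and 1 (12.5%) lower, against 13.3% and 13.9% of all genes. Without NICD4 replicate 1 it was 2 and 1, and with the 6 libraries alone 1 and 1. JAG1, a ligand for receptors on neighbouring cells, rose the most. It had 24.7, 20.2 and 21.3 CPM in NICD4, against 5.56, 5.53 and 6.55 CPM in NICD1 and 5.3 CPM in EV, a difference of 1.90 ± 0.12 (limma adjusted p = 1.1e-07). NICD1 lay near the EV mean and NICD4 above it. DLK2, a noncanonical ligand of the Delta-like family, was the member that fell, with 3.8, 3.85 and 4.57 CPM in NICD4 and 8.79, 8.73 and 8.14 CPM in NICD1. RFNG, a fringe glycosyltransferase, was higher by 0.68 ± 0.17, a call lost with the 6 libraries alone and without NICD1 replicate 3. JAG2 (0.26 ± 0.08) lost its call under 10 settings, among them removal of the GC trend, where its difference was −0.03 and the list's median 0.02.

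The wider list of other reported NOTCH targets did not move one way, with a median of 0.01. Of its 25 tested genes, 7 (28%) were called higher and 5 (20%) lower, against 13.3% and 13.9% of all genes. The counts were 5 and 3 without NICD4 replicate 1, and 4 and 1 with the 6 libraries alone. The RUNX factors, transcription regulators of several lineages, both rose. RUNX1 was at 84.5, 56.3 and 71.0 CPM in NICD4 and 36.1, 41.7 and 36.1 CPM in NICD1 (0.88 ± 0.12), and RUNX3 at 77.4 ± 7.26 CPM in NICD4 and 48.3 ± 5.77 CPM in NICD1 (0.68 ± 0.09). SNAI2, a repressor that acts in epithelial to mesenchymal transition, rose at a low level, with 1.27, 2.35 and 1.46 CPM in NICD4, against 0.412, 0.205 and 0.328 CPM in NICD1. The cell cycle inhibitor CDKN1A rose by 0.64 ± 0.09, while the protease gene PLAU fell by 0.50 ± 0.09 on the log2 scale. MYC was at 54.6 ± 16.1 CPM in NICD4 and 87.5 ± 22.7 CPM in NICD1. Its call (limma adjusted p = 0.041) was lost under 8 settings, and the groups overlapped. Of 23 RBPJ coactivators and corepressors, 3 (13%) were called in each direction, near the share of all genes. The counts were 2 higher and 1 lower without NICD4 replicate 1, and with the 6 libraries alone 0 and 1. RBPJ itself had 39.7 ± 2.62 CPM in NICD4 and 39.98 ± 0.538 CPM in NICD1 (−0.01 ± 0.07, 95% interval −0.17 to 0.15). HDAC2, a histone deacetylase of corepressor complexes, fell by 1.31 ± 0.22, with 26.5, 59.1 and 40.9 CPM in NICD4 and 109, 80.6 and 111 CPM in NICD1.

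Among genes averaging a log2 CPM of 1 or more, those with the largest differences were mostly not NOTCH pathway genes. TMEM132D-AS1, an antisense RNA of chromosome 12, had 108, 91.4 and 97.8 CPM in NICD4, against 0.893, 0.478 and 0.546 CPM in NICD1, which is 7.20 ± 0.20 on the log2 scale. With an EV mean of 72.1 CPM, NICD1 was the low group. Whether counting used strand is not given in the sources used here, so its reads cannot be told from those of TMEM132D. PAGE1, a germline gene of the PAGE family on chromosome X (49452053 to 49460596, GRCh37), had 2424, 1611 and 1855 CPM in NICD4 and 23.6, 25.8 and 19.3 CPM in NICD1. The EV mean of 379 CPM lay between them, and related PAGE copies could share its reads. ATP5F1EP2, a pseudogene, rose by 2.59 ± 0.26. PCBP3, an RNA-binding protein, had 52.9, 24.1 and 32.5 CPM in NICD4 and 5.98, 9.07 and 5.03 CPM in NICD1. Other rises of about 4-fold or more were in the signalling adaptor SHC2 (2.38 ± 0.19), the potassium channel KCNK9 (2.38 ± 0.19), QPRT of NAD synthesis (2.36 ± 0.20), the protein kinase C gene PRKCQ (2.20 ± 0.15) and the glucose transporter SLC2A3 (2.11 ± 0.14). For the last 3, NICD4 stood between NICD1 and EV. QPRT averaged 6.81 CPM in NICD4, 1.29 CPM in NICD1 and 18.9 CPM in EV, and SLC2A3 7.21 CPM in NICD4, 1.63 CPM in NICD1 and 27.2 CPM in EV.

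Of the falls, S100A14 was the largest. This calcium-binding protein gene of epithelia (chromosome 1, 153586731 to 153589462) had 4.07, 2.35 and 2.92 CPM in NICD4, against 61.7, 67.0 and 52.2 CPM in NICD1, a difference of −4.28 ± 0.19. The EV mean of 11 CPM lay between. Genes of the same S100 cluster on chromosome 1 went both ways: S100A16 fell by 1.23 ± 0.12, and S100A4 (1.60 ± 0.21), S100A2 (1.18 ± 0.22) and S100A3 (1.01 ± 0.18) rose. S100A4 had 733, 474 and 588 CPM in NICD4 and 180.1, 248 and 166 CPM in NICD1. FGFBP1, a carrier that releases fibroblast growth factors from the matrix, showed little spread, with 10.8, 9.58 and 10.2 CPM in NICD4 and 56.0, 55.0 and 59.0 CPM in NICD1 (−2.47 ± 0.07). The microtubule-associated gene MAP7D3 fell by 2.56 ± 0.10, the inflammasome family gene NLRP4 by 2.70 ± 0.13 and the membrane protein gene EMP1 by 3.25 ± 0.53. EMP1 was uneven in NICD4, at 0.181, 1.37 and 1.36 CPM, against 7.83, 5.05 and 10.0 CPM in NICD1. The secreted kallikrein proteases KLK6 (−1.84 ± 0.15) and KLK10 (−1.78 ± 0.18) fell together, as did the carboxypeptidase CPA4 (−2.25 ± 0.17) and the serotonin receptor HTR7 (−2.22 ± 0.22).

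**Figure D2:**
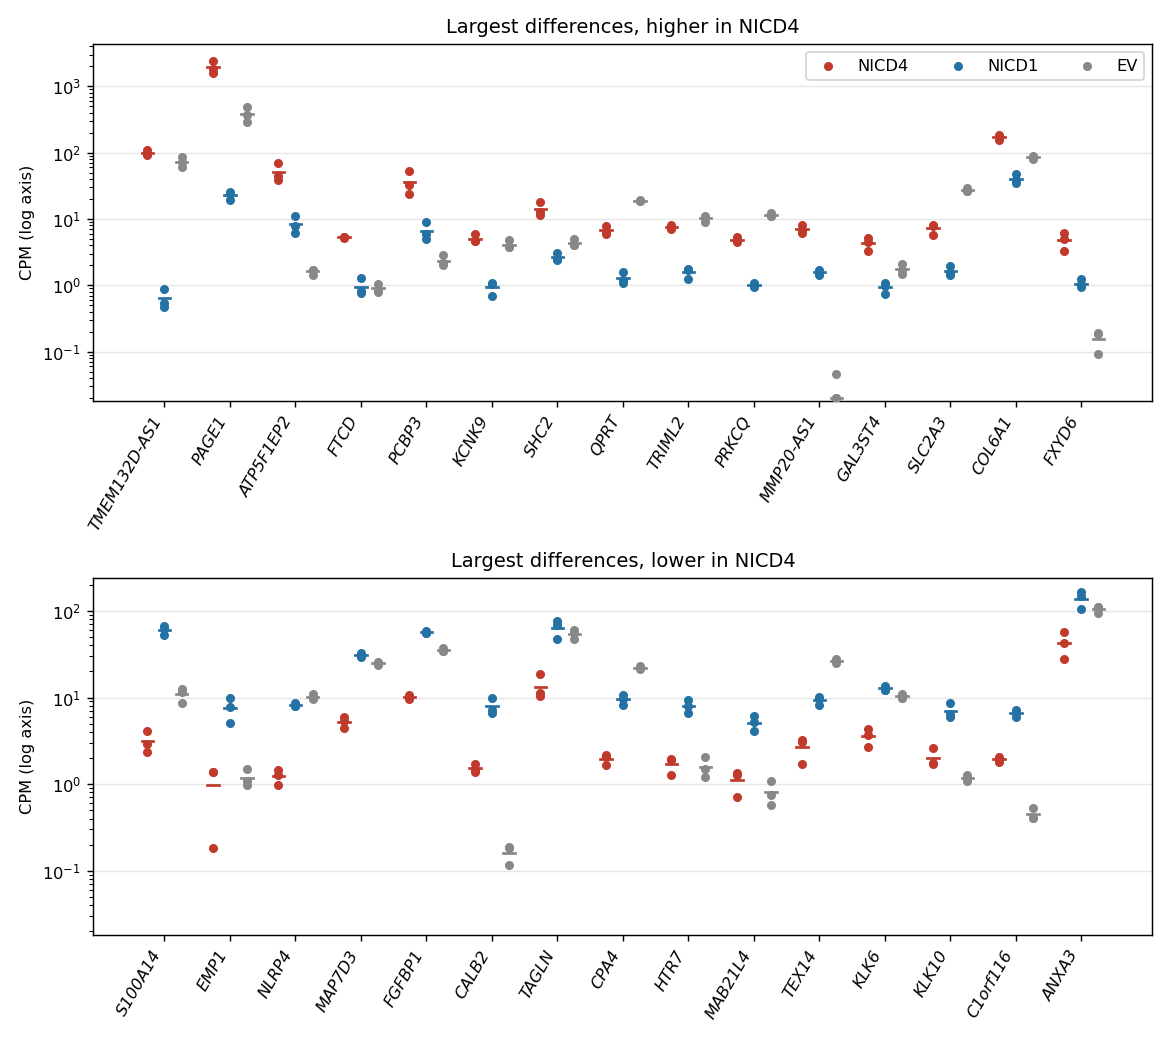
CPM on a log axis of the 15 genes with the largest rises (top) and the 15 with the largest falls (bottom) in each NICD4, NICD1 and EV library; points are libraries and bars means of 3, and libraries with no read are drawn at the lower edge. The EV libraries lie near NICD4 for some genes (TMEM132D-AS1, KCNK9) and near NICD1 for others (FTCD, KLK6).

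A few genes had no read in one group. GCG, the glucagon precursor of enteroendocrine cells, had 71 reads over the NICD4 libraries and none in NICD1. Its pooled level was at least 30.7-fold higher in NICD4, taking 3 reads over the NICD1 libraries as the floor. ZNF268 (43 reads) and ZNF883 (45 reads) were also without a read in NICD1. They averaged 1.12 and 1.18 CPM in NICD4, below their EV means of 5.43 and 4.14 CPM. TENM1, a teneurin adhesion protein, had 23 reads in NICD1 and none in NICD4, at least 5.92-fold lower. Its mean was 0.497 CPM in NICD1 and 19.4 CPM in EV, so both NICD groups lay far below EV. With at least 10 reads in the group that had any, 19 genes lacked reads in NICD1; in NICD4, 9 genes met the same rule.

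Cholesterol synthesis genes were the list with the most falls. Of 26 tested, 15 (57.7%) were called lower and 2 higher, against 13.9% lower among all genes, and the median difference was −0.42. Without NICD4 replicate 1 the counts were 14 lower and 1 higher, and with the 6 libraries alone 10 and 1. SREBF2, the factor that switches on this pathway when sterols are low and whose promoter is printed above, had 68.2, 68.1 and 66.6 CPM in NICD4 and 116, 117 and 117 CPM in NICD1. That is a difference of −0.79 ± 0.07 (limma adjusted p = 2e-06), with the EV mean at 131 CPM. HMGCS1, an early enzyme of the pathway, fell by 1.17 ± 0.19, and INSIG1, which retains the sterol sensor in the endoplasmic reticulum, by 0.99 ± 0.08. Later enzymes fell as well, MSMO1 by 0.98 ± 0.08, IDI1 by 0.96 ± 0.14 and FDFT1 by 0.48 ± 0.08. The fatty acid desaturase SCD fell by 0.71 ± 0.08. Of the 2 higher members, LSS (lanosterol synthase) had 70.2 ± 1.87 CPM in NICD4 and 49.1 ± 2.51 CPM in NICD1 and lies on distal chromosome 21, described below.

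Genes of antigen presentation and of the interferon response were more often called higher than lower. Of 23 MHC and peptide processing genes, 12 (52.2%) were called higher and 0 lower, against 13.3% and 13.9% of all genes, with a median of 0.45. Leaving out NICD4 replicate 1 gave 9 and 0 (7.69% of all genes higher), and the 6 libraries alone 5 and 0 (3.82% higher). CIITA, the master activator of MHC class II, rose by 2.02 ± 0.29, with 1.17, 0.782 and 1.75 CPM in NICD4 and 0.275, 0.205 and 0.273 CPM in NICD1. The class II chain HLA-DRA had 1.54, 2.61 and 2.53 CPM in NICD4 and 0.756, 0.682 and 0.983 CPM in NICD1, with an EV mean of 0.0279 CPM. HLA-DRB1 rose by 0.63 ± 0.14 and the class I gene HLA-E by 0.51 ± 0.09. HLA-C was called higher (0.46 ± 0.09), but with the GC trend removed its difference was 0.19 and not called, and the list's median was then 0.23. Near-identical HLA copies can share reads, so single members are uncertain. The light chain B2M went the other way without a call, at 50.1 ± 21.4 CPM in NICD4 and 74.2 ± 19.9 CPM in NICD1.

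Of 27 interferon-stimulated genes, 12 (44.4%) were called higher and 1 lower, against 13.3% and 13.9% of all genes. It was again 12 and 1 without NICD4 replicate 1, and 6 and 0 with the 6 libraries alone. ISG15, a ubiquitin-like modifier, had 1026, 607 and 735 CPM in NICD4 and 375, 492 and 321 CPM in NICD1 (0.98 ± 0.22). OASL rose the most among members above 0.5 CPM in NICD1, with 3.8, 3.59 and 4.08 CPM in NICD4 and 0.824, 0.955 and 1.09 CPM in NICD1. IFI6 rose by 0.89 ± 0.15, ISG20 by 0.97 ± 0.16 and IFI27 by 0.77 ± 0.15. The median of 0.37 was 0.13 without the GC trend. MX1 and MX2, both called higher though not with the 6 libraries alone, lie on distal chromosome 21. Of the 25 interferon genes elsewhere 10 were called higher and 1 lower, and their median was 0.196 with the GC trend left in.

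**Figure D3:**
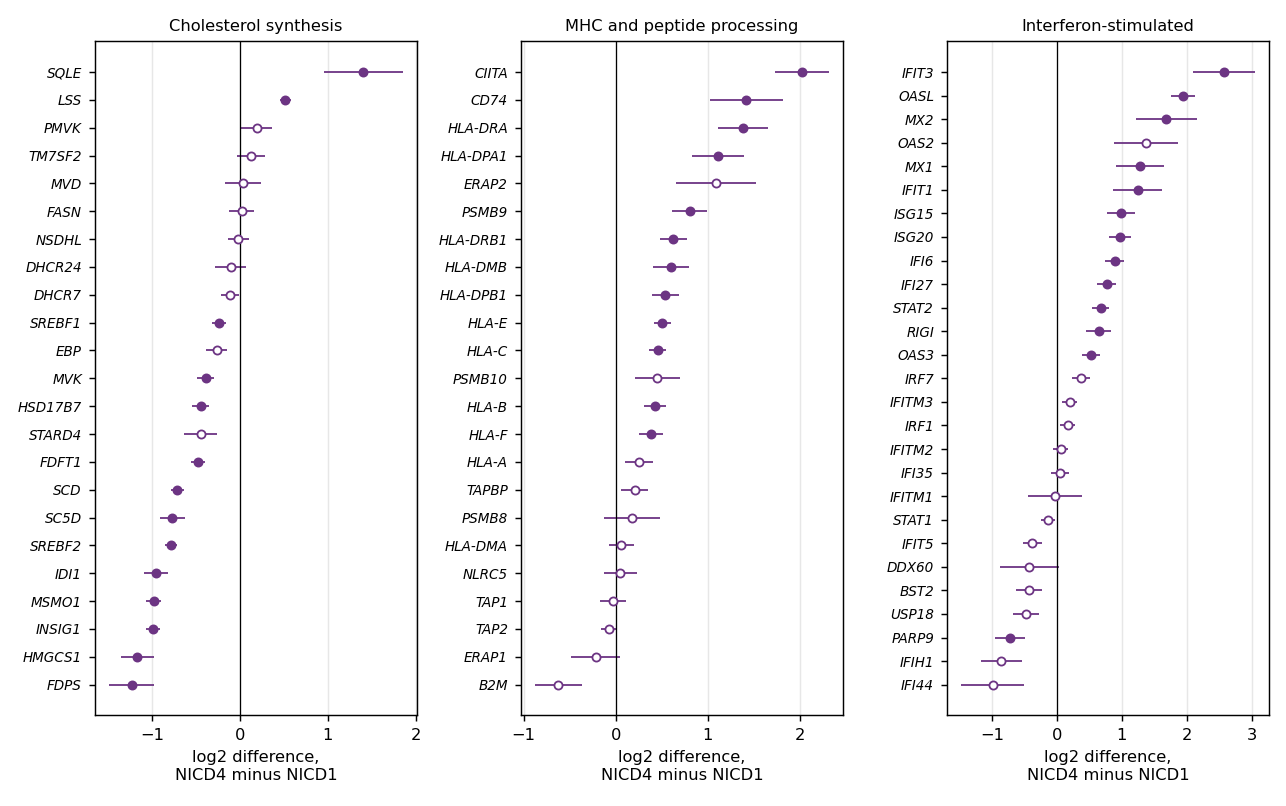
Log2 difference (NICD4 minus NICD1) with its standard error for tested members of the cholesterol (3 not drawn), MHC and interferon lists; filled points are called (adjusted p under 0.05), open points are not. Most cholesterol genes lie left of 0 (15 of 26 called lower), and no MHC gene is called lower.

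Genes that hold epithelial cells together and to their matrix were more often called lower than higher. Of 17 cadherin junction and desmosome genes, 8 (47.1%) were called lower and 2 (11.8%) higher, against 13.9% and 13.3% of all genes. These counts were 5 and 1 without NICD4 replicate 1, and 2 and 0 with the 6 libraries alone, where 2.43% of all genes were lower. The desmosomal cadherins DSC2 (−0.95 ± 0.15) and DSC3 (−1.40 ± 0.31) fell, whereas E-cadherin, CDH1, was not called at 12.5 ± 1.34 CPM in NICD4 and 14.5 ± 1.68 CPM in NICD1. Of 10 integrins, 4 (40%) were called lower and 1 (10%) higher, against 3 and 0 with the 6 libraries alone and 4 and 0 without NICD4 replicate 1. ITGB4 and ITGA6, which pair as the hemidesmosome receptor for laminin, both fell. ITGB4 had 59.5, 45.5 and 54.1 CPM in NICD4 and 122, 144 and 112 CPM in NICD1, with an EV mean of 23.3 CPM, and ITGA6 had 12.7, 22.8 and 18.8 CPM in NICD4 and 42.0, 34.0 and 44.4 CPM in NICD1. The hyaluronan receptor CD44 fell by 1.19 ± 0.09. It was at 51.6 ± 6.91 CPM in NICD4, against 117 ± 1.78 CPM in NICD1 and 41.9 CPM in EV, so that CD44 in NICD4 was nearer to EV.

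Keratins divided. Of 16 tested, 4 (25%) were called higher and 5 (31.2%) lower, against 13.3% and 13.9% of all genes. The keratin median was 0.25, but 0.003 with the GC trend removed. Without NICD4 replicate 1 the counts were 4 and 4, and with the 6 libraries alone 2 and 4. KRT5, a basal keratin, had 7.41, 6.58 and 5.54 CPM in NICD4 and 0.412, 0.341 and 0.328 CPM in NICD1, a difference of 3.98 ± 0.29. KRT16 rose by 1.21 ± 0.20. KRT80 (−1.56 ± 0.11), KRT7 (−1.40 ± 0.18) and the abundant simple keratin KRT18 (−0.55 ± 0.10) fell, the last to 1592 ± 50.4 CPM in NICD4, against 2322 ± 63.5 CPM in NICD1. Its partner KRT8 was not called (−0.12 ± 0.17). The keratins KRT5 and KRT16 have close paralogs that can share reads.

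Of 17 contractile genes, 6 (35.3%) were called lower and 1 (5.88%) higher, against 13.9% and 13.3% of all genes. The counts were 4 and 0 with the 6 libraries alone and 6 and 0 without NICD4 replicate 1. TAGLN, an actin-binding protein, led with 10.3, 18.6 and 11.3 CPM in NICD4 and 68.0, 47.5 and 76.1 CPM in NICD1. TPM4 fell by 0.99 ± 0.12 and the myosin heavy chain MYH9 by 0.43 ± 0.09. Targets of the YAP coactivator went apart: ANKRD1 rose by 3.48 ± 0.21 and CCN1 by 0.93 ± 0.09, while AJUBA fell by 0.74 ± 0.14. ANKRD1 had 2.98, 4.11 and 3.5 CPM in NICD4, against 0.275, 0.205 and 0.328 CPM in NICD1. The YAP list of 18 genes holds targets and also YAP1, WWTR1 and the TEAD factors themselves. Of the 18, 3 (16.7%) were called higher and 7 (38.9%) lower, against 13.3% and 13.9% of all genes. TEAD1 was among the higher calls, and YAP1 and TEAD3 among the lower, so these are not counts of targets alone. The counts were 3 and 5 without NICD4 replicate 1, and 2 and 1 with the 6 libraries alone.

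Of 19 collagens, 7 (36.8%) were called higher and 2 (10.5%) lower, against 13.3% and 13.9% of all genes. Leaving out NICD4 replicate 1 gave 5 and 3, and the 6 libraries alone 5 and 1. COL6A1 had 186, 155 and 171 CPM in NICD4 and 35.0, 47.3 and 38.3 CPM in NICD1 (2.09 ± 0.11), with the EV mean of 85.1 CPM between them. Its partner chain COL6A2 rose by 1.27 ± 0.13 and COL18A1 by 1.29 ± 0.07. All 3 lie on distal chromosome 21, and of the 16 collagens elsewhere 4 were called higher and 2 lower. Among those, COL7A1, the anchoring fibril collagen, rose by 1.28 ± 0.17 and COL9A3 fell by 1.60 ± 0.21. Of the 9 tested fibroblast and mesenchymal markers, 4 (44.4%) were called higher and 0 lower (3 and 0 with the 6 libraries alone, 4 and 0 without NICD4 replicate 1). SPARC was at 1.19 CPM in NICD4 and 0.26 CPM in NICD1, and VIM was not called.

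**Figure D4:**
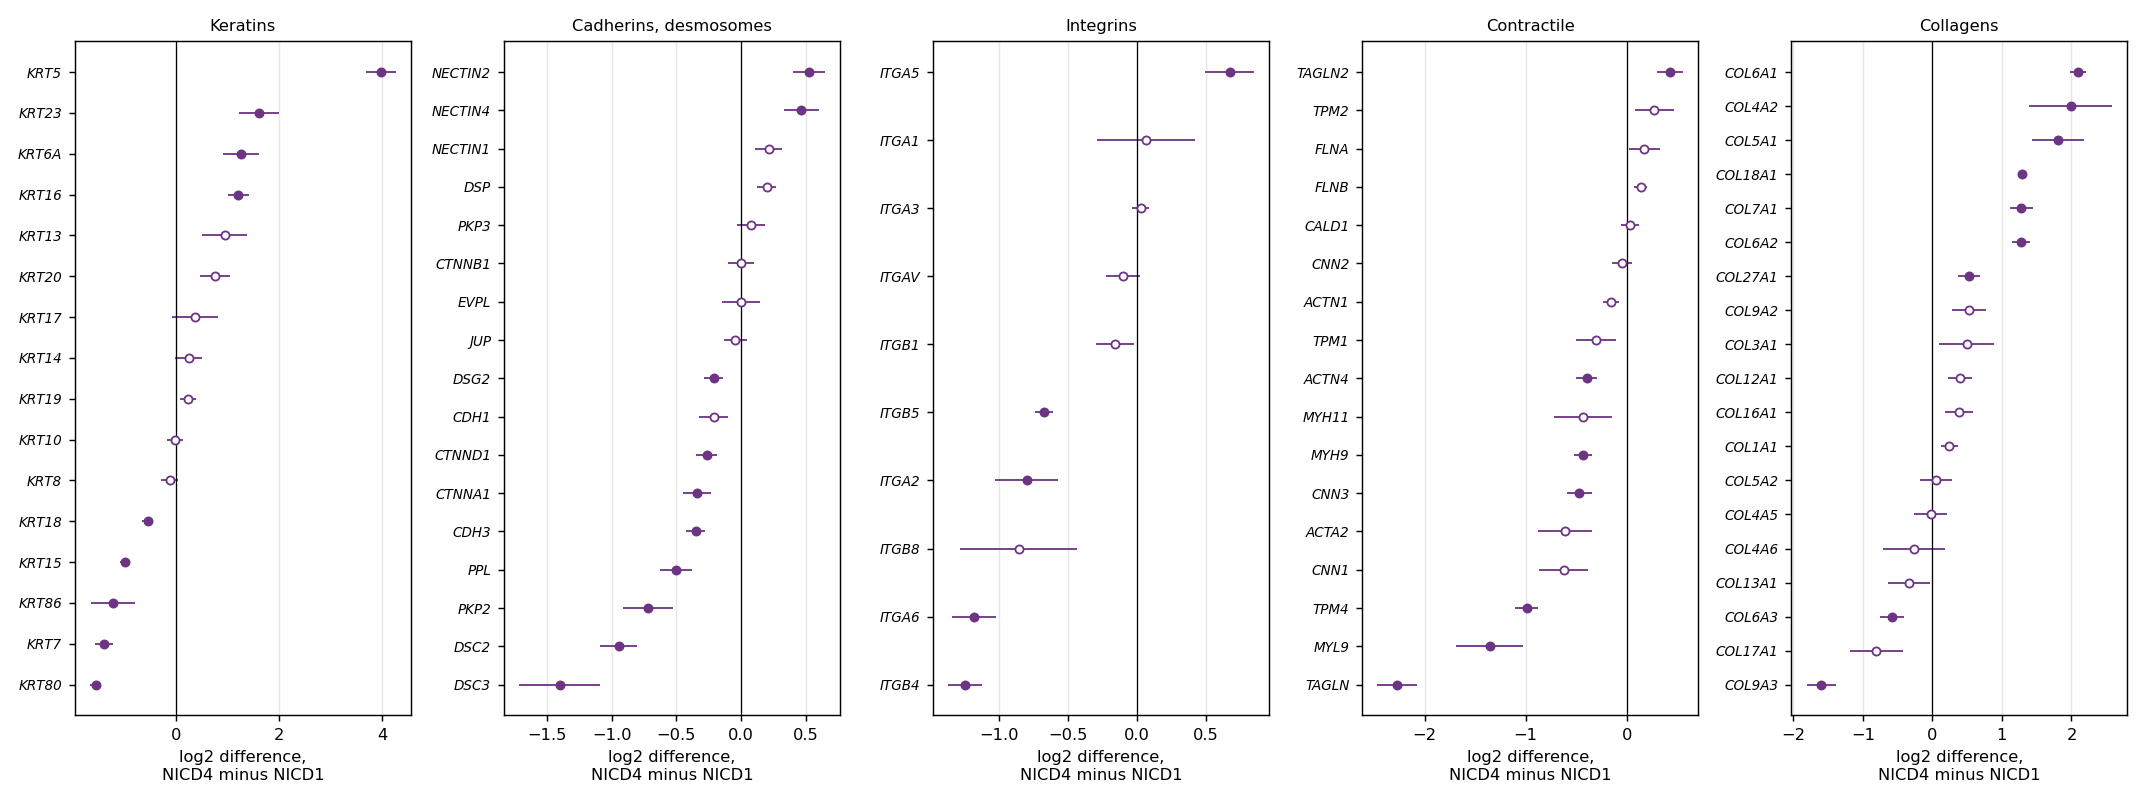
Log2 difference (NICD4 minus NICD1) with its standard error for each tested keratin, cadherin or desmosome gene, integrin, contractile gene and collagen; filled points are called (adjusted p under 0.05), open points are not. KRT5 (3.98) and COL6A1 (2.09) are at the top of their panels, and ITGB4 (−1.25) and TAGLN (−2.27) at the foot of theirs.

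Growth signal lists went both ways. Of 22 immediate early genes 4 (18.2%) were called higher and 4 (18.2%) lower (median 0.01), near the 13.3% and 13.9% of all genes. Of 12 genes of the EGF receptor family and its ligands, ERRFI1 and LRIG1 included, 1 (8.33%) was called higher and 3 (25%) lower. Of 17 ERK feedback genes 3 (17.6%) were called higher and 4 (23.5%) lower. With the 6 libraries alone the counts of these lists were 3 and 0, 1 and 2, and 1 and 0, beside 3.82% and 2.43% of all genes. They were 3 and 3, 2 and 3, and 2 and 3 without NICD4 replicate 1. TGFA, a ligand of the EGF receptor, had 5.6, 6.0 and 5.93 CPM in NICD4 and 12.98, 11.5 and 13.7 CPM in NICD1, while HBEGF, another ligand, rose by 0.62 ± 0.10. FOSB (1.67 ± 0.15) and EGR1 (0.78 ± 0.07), transcription factors induced early by growth factors, rose. The early genes ZFP36 (−0.96 ± 0.25), KLF4 (−0.79 ± 0.24) and KLF6 (−0.36 ± 0.09) were called lower, as was MYC, but none of these 4 calls was made with the 6 libraries alone. ERRFI1, an inhibitor of the EGF receptor, fell to 32.1, 49.9 and 42.3 CPM in NICD4, against 89.4, 69.6 and 90.9 CPM in NICD1. EGR1 had 46.0, 46.8 and 47.0 CPM in NICD4 and 29.2, 26.1 and 26.2 CPM in NICD1, both under the EV mean of 118 CPM. The morphogen BMP4 fell by 1.40 ± 0.18 and NOTUM, an extracellular inhibitor of WNT, by 1.31 ± 0.13. Of 18 TGF-beta and BMP genes 2 (11.1%) were called higher and 3 (16.7%) lower. Of 23 WNT genes it was 3 (13%) and 6 (26.1%). With the 6 libraries alone each of these 2 lists had 0 higher and 1 lower. SOX4 rose to 157 ± 26.3 CPM in NICD4, against 78.2 ± 6.24 CPM in NICD1, and KLF5 fell to 19.5 ± 1.23 CPM in NICD4, against 35.9 ± 1.84 CPM in NICD1. The Eph receptor EPHB6 rose by 1.96 ± 0.20 and EPHA2 fell by 0.49 ± 0.08. Of 14 ephrins and Eph receptors 4 (28.6%) were called higher and 1 (7.14%), EPHA2, lower. With the 6 libraries alone the counts were 3 and 1.

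Few calls in the housekeeping lists outlasted a change of libraries, but calls over all genes dropped as well, from 27.2% to 6.26% with the 6 libraries alone. Of 24 mitotic genes 1 (4.17%) was called higher and 2 (8.33%) lower, against 13.3% and 13.9% of all genes. Of 29 DNA replication genes 1 (3.45%) was called higher and 7 (24.1%) lower, a lower share above that of all genes. With the GC trend removed the replication counts were again 1 and 7. None of either list was called with the 6 libraries alone. Without NICD4 replicate 1 the replication genes had 0 higher and 2 lower and the mitotic genes 0 and 0, beside 7.69% and 7.4% of all genes. No cytosolic ribosomal protein gene of 82 was called higher and 11 (13.4%) lower, near the 13.9% of all genes, and 1 lower without NICD4 replicate 1. Ribosomal protein genes took 17.4 ± 0.582% of reads in NICD4 and 17.1 ± 0.968% in NICD1 (exact permutation p = 0.8, 3 against 3), and mitochondrially encoded mRNAs 3.82 ± 0.6% in NICD4 and 3.99 ± 0.466% in NICD1 (exact permutation p = 0.6). Both tests are two-sided and cannot go below 0.1.

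Differences also followed position. By whole chromosome, 27% of 1076 genes of chromosome 19 were called higher and 4.65% lower (median 0.26, or 0.12 with the GC trend removed). Over all genes these shares were 13.3% and 13.9%. Of 32 mitochondrial genes, most of them tRNAs, 10 (31.2%) were called higher and 0 lower, and their median was 0.48. Of the 13 mRNAs among them 1 (7.69%) was called higher and 0 lower (median 0.02). Running medians of 15 genes, with the GC trend removed, reached 0.4 in size over at least 20 genes in 2 stretches, on chromosomes 13 and 21. In shorter runs they also passed this size, upward on chromosomes 11 (0.406) and 19 (0.413). Downward they did so on chromosomes 1 (−0.449), 7 (−0.414), 12 (−0.413) and 16 (−0.404). The ends of the 2 stretches were trimmed to genes past 0.4, and the mitochondrial and Y chromosomes were not scanned. This rule, with its 20 genes, was set after the data were seen and is given without a test. Distal chromosome 21 from BACE2 to PRMT2 (42539728 to 48085036, GRCh37) held 52 genes that averaged a log2 CPM of 1 or more, of which 41 (78.8%) were called higher and 1 lower, or 30 and 0 with the 6 libraries alone and 39 and 1 without NICD4 replicate 1. The shares of all genes were 13.3% and 13.9%, 3.82% and 2.43%, and 7.69% and 7.4% in that order, but the stretch was picked by these same differences. The median difference of the 52 genes was 0.61, and 0.59 (1.51-fold) with the GC trend removed. Relative to the EV mean, with the GC trend removed, the median over these genes was 0.832, 0.612 and 0.715 in the 3 NICD4 libraries and 0.001, 0.164 and 0.067 in the 3 NICD1 libraries (all log2), and it was −0.06 in NICD2 and 0.068 in NICD3. The stretch was thus high in NICD4 rather than low in NICD1. It contains PCBP3, FTCD, COL6A1, COL6A2, COL18A1, LSS, MX1 and MX2. BACE2, a membrane protease at its edge, had 35.7, 33.6 and 36.3 CPM in NICD4 and 22.7, 22.2 and 22.1 CPM in NICD1. RUNX1 lies on the same chromosome but before the stretch.

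On chromosome 13 the stretch from DCLK1 to ZC3H13 (36343122 to 46626894) held 26 such genes, of which 18 (69.2%) were called higher and 3 lower (12 and 0 with the 6 libraries alone, 17 and 2 without NICD4 replicate 1). Over all genes 13.3% were called higher and 13.9% lower (3.82% and 2.43% with the 6 libraries alone). This stretch too was picked by its differences. The median difference of the 26 genes was 0.70, and 0.90 (1.87-fold) with the GC trend removed. The 3 genes called lower, RFXAP, EXOSC8 and SUPT20H, lie close together near the start of the stretch, between DCLK1 and UFM1. The higher level was thus not even along the stretch. Here, on the same GC-removed scale, the NICD4 libraries had medians of −0.003, 0.013 and −0.038 relative to EV, and the 3 NICD1 libraries −0.929, −0.816 and −0.795. The medians were −0.002 in NICD2 and −0.086 in NICD3, so NICD1 was the group that stood apart. PROSER1 had 35.8, 30.6 and 32.8 CPM in NICD4 and 16.5, 17.3 and 16.5 CPM in NICD1, and the abundant growth-related gene TPT1 1716, 2151 and 1985 CPM in NICD4 and 1276, 1194 and 1331 CPM in NICD1. The leucine zipper factor TSC22D1 (1.18 ± 0.12) and the forkhead factor FOXO1 (0.83 ± 0.13) are in it. BACE2, PRMT2, DCLK1, ZC3H13, RFXAP, EXOSC8, SUPT20H, UFM1, PROSER1, TPT1, TSC22D1 and FOXO1 were named after their values were seen.

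**Figure D5:**
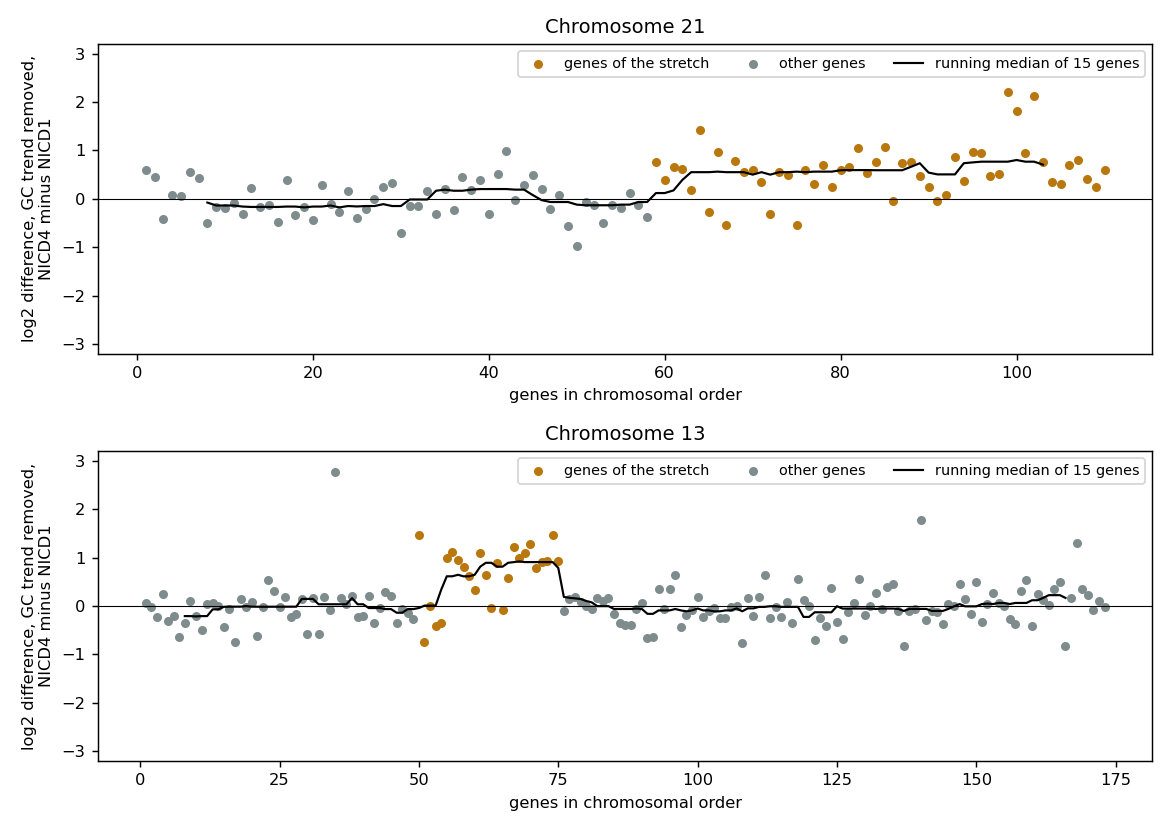
Log2 difference (NICD4 minus NICD1, GC trend removed) of each gene averaging a log2 CPM of 1 or more along chromosomes 21 and 13, in chromosomal order, with a running median of 15 genes. The running median lies closer to 0 outside the coloured stretches, whose medians on this scale are 0.59 on chromosome 21 and 0.90 on chromosome 13.

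One technical measure moved with the groups. Genes were split into 10 bins of equal size by transcript GC content. The median difference was −0.21 in the lowest bin and 0.30 in the highest, and increased at each step between. After each library's trend on GC was removed, 2023 genes were called higher and 2021 lower, of which 1539 and 1499 were also called in that direction before. The slope differed between libraries of 1 group: the highest bin stood above the lowest by 1.389, 0.557 and 0.863 in NICD4 and 0.345, 0.689 and 0.182 in NICD1 (log2, relative to the mean of all 15 libraries). Its part in single results was not tested beyond the values given.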

How the data were processed

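Poly(A) RNA was sequenced from 15 libraries, 3 in each of 5 groups. Per the submitters' processing notes, TopHat2 2.0.6, HTSeq and GRCh37 were used. The deposited values are log2 of reads plus 1 per gene. Reads were recovered as 2 to the power of the value, minus 1. A gene was tested if 3 or more libraries reached 10 reads at the median depth (0.548 CPM) and its total was 15 reads or more. Log2 CPM after TMM scaling, with 1 read (0.0544 CPM) added, entered limma 3.58.1 (trend and robust, R 4.3.3) with 1 mean per group over all 15 libraries. The contrast was NICD4 minus NICD1, two-sided, with Benjamini-Hochberg adjustment over 15122 genes. The procedure was also run on simulated counts with a common spread in all groups and no GC trend. That run could not show how unequal spread or the GC trend affects the calls. The GC trend was a loess curve per library (span 0.3). Total reads per library limit the precision of low genes.

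The members, the 46 gene lists and the tests were chosen with earlier results of these data known. Genes could be named as the 15 largest called differences in each direction without overlap, at a mean log2 CPM of 1 or more, the 10 largest of each direction after GC removal, list members, NOTCH1 to NOTCH4, and the 5 highest genes with no read in 1 group. An Eph receptor entered by mistake among the NOTCH ligands, and called higher, was taken out of that list after its value was seen. Alternatives changed the scaling, added reads, filter, libraries, block and GC trend. Values of a few list members are not reported here, though list counts include them.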

Additional observations from a re-analysis of the deposited data

How the results depend on the processing

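The numbers of calls moved most with the libraries in the fit. Leaving out 1 library at a time gave 1097 to 2741 genes higher and 911 to 3137 lower in NICD4, the lowest without NICD1 replicate 3 and the highest without NICD4 replicate 2. The 6 libraries alone gave 578 higher and 368 lower, and with the GC trend also removed 821 and 751. The cause was not tested. Deviations from the group means of same-numbered NICD4 and NICD1 libraries had correlations of −0.147, −0.415 and 0.048. With 3 libraries per group the deviations are tied to one another, so this cannot settle whether replicate numbers pair libraries. A replicate block gave 2163 higher and 2212 lower. Library totals in place of TMM moved the median of all genes to −0.105.

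With library totals only, the list medians were 0.45 for HES, HEY and NRARP, −0.48 for contractile genes, −0.51 for cholesterol genes and 0.62 for the chromosome 13 stretch. A filter of 50 reads gave 0.41 for ligands, −0.12 for keratins (0.25 before, so the direction turned) and −0.35 for contractile genes, which stood at −0.31 with 5 reads added. With the GC trend removed (also with the block, or in the 6 libraries) the medians were 0.023 for ligands, −0.16 for RBPJ cofactors, −0.33 for contractile genes, 0.13 for interferon genes, 0.23 for MHC genes and 0.90 for the chromosome 13 stretch. NOTCH1 was then −0.14, NOTCH3 −0.12, HES6 −0.21, HEYL −0.015, JAG2 −0.032, RBPJ 0.20 and NOTCH2 0.19, the last called without the block. RBPJ was 0.005 with median-of-ratios scaling. Leaving out 1 library at a time, the ranges were 0.31 to 0.84 for fibroblast markers, −0.47 to −0.25 for integrins, −0.42 to −0.33 for contractile genes, 0.31 to 0.52 for interferon genes, 0.61 to 0.73 for the chromosome 13 stretch, −0.21 to 0.047 for NOTCH4, −0.061 to 0.032 for RBPJ and −0.281 to 0.025 for KRT8, the last above 0 without NICD4 replicate 2. The mitochondrial share differed by −0.166 percentage points of reads and by 0.0643 of the scaled library size, so its direction turned. Of the single named genes outside the receptors (120), 63 results over all settings lost a call in the same direction, 6 gained one, 2187 kept both, and 15 changed sign, 3 of them of JAG2, which was called before. Depth limits genes under about 1 CPM most.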
